A study of Homo sapiens with 12 samples.

Results

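The ABC drug efflux transporters were examined by RNA sequencing in a pair of lines, SK-UT-1B as well as SK-LMS-1. They were the 8 rows of the count table whose gene symbol was ABCB1, ABCC1, ABCC2, ABCC3, ABCC4, ABCC5, ABCC10, or ABCG2, out of 60649 genes. Both are established cell lines labelled as uterine leiomyosarcoma (uLMS), with the genotype given as WT, and each represents 1 tumor. SK-UT-1B was exposed to DMSO (2 libraries) or to MK-0752 given with gemcitabine and docetaxel, called the combination here (2 libraries). SK-LMS-1 was exposed to DMSO (4 libraries), to MK-0752 alone (2 libraries), or to the same combination (2 libraries). Exposure lasted 72 h at the IC30 of the treatment, the concentration that lowers viability by 30 percent. The study's methods derive it separately for MK-0752 alone and for the combination, and in each line, so each drug was more dilute in the combination than its own IC30 and concentrations differed between the lines. Comparisons of MK-0752 with the combination, and of treated lines, are therefore not at matched doses. The SK-LMS-1 DMSO libraries carry the first number 2 (DMSO set 2) or 4 (DMSO set 4), and each SK-LMS-1 treatment was compared with the DMSO set that shares its number, which was 2 for MK-0752 and 4 for the combination. In SK-UT-1B, the combination libraries carry the first number 3 and the DMSO libraries 4, so that treatment and number cannot be told apart there. The meaning of these numbers is not given. The comparisons are not independent, since treatments and lines are compared through the same control libraries. The labels do not say that the 2 libraries of a group came from separate cultures, so p-values measure the spread between these libraries, which may be technical. Since the samples are bulk RNA, fewer cells that express a gene and less RNA per cell cannot be told apart.

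ABC transporters are membrane proteins that use ATP to move molecules across a membrane, and those studied here move drugs and their metabolites out of the cell. ABCB1 (P-glycoprotein), ABCC2, and ABCC10 export taxanes such as docetaxel, whereas ABCC4 and ABCC5 export cyclic nucleotides and nucleoside monophosphate analogs, the class of metabolite that gemcitabine forms in cells. ABCC1 and ABCC3 export conjugates with glutathione or glucuronic acid, and ABCG2 (breast cancer resistance protein) exports drugs such as topotecan and mitoxantrone. MK-0752 inhibits gamma secretase, the protease that releases the active fragment of Notch receptors.

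To show the sequence just before the transcription start of the transporters on which the comparison of the lines turns, windows of 250 bases that end at the base before the RefSeq start were taken (GRCh38.p14). The table held windows for 6 of the 8 members. Shown are ABCB1 (chr7:87600885-87601134) and ABCG2 (chr4:88158640-88158889), which had no or almost no counts in SK-UT-1B, and ABCC4 (chr13:95301452-95301701) and ABCC5 (chr3:184017885-184018134), which were counted in every library. All 4 genes lie on the minus strand, and each window is printed 5′ to 3′ as the gene is read. Capitals mark 6 motifs searched on both strands, namely the GC box core (GGGCGG), the CCAAT box, the TATA box (as TATAAA), the core bound by RBPJ at Notch targets (GTGGGAA), the antioxidant response core (TGACNNNGC), and the core of the xenobiotic response element (GCGTG).
ABCB1: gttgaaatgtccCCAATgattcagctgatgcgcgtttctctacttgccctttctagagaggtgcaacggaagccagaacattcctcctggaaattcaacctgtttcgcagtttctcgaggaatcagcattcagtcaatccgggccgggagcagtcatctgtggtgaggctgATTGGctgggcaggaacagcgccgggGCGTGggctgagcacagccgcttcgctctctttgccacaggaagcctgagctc
ABCG2: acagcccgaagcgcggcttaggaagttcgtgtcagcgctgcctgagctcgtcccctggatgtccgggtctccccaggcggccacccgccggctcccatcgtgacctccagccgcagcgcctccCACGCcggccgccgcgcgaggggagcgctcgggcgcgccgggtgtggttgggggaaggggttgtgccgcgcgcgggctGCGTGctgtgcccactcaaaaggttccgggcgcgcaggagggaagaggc
ABCC4: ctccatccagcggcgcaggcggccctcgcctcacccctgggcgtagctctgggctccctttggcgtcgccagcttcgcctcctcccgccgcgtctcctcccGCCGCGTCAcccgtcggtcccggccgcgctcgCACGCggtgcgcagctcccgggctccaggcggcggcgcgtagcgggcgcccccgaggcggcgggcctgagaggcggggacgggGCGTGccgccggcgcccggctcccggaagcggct
ABCC5: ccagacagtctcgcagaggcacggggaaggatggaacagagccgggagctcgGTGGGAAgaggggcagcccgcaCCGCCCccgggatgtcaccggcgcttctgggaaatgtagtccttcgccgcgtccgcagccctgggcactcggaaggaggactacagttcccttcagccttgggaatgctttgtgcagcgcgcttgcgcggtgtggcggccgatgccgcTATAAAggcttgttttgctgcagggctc

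The window of ABCB1 had 2 CCAAT matches, of which the nearer began 79 bases before the start, and 1 GCGTG match. CCAAT was present in 32.0% of the 35116 windows of this length. In ABCG2, GCGTG was matched 2 times, and this motif was present in 32.2% of all windows. ABCC4 had 2 matches to GCGTG and 1 to TGACNNNGC, which was present in 10.9% of windows. ABCC5 had TATAAA 28 bases before its start, present in 10.7% of windows, and GTGGGAA, present in 5.43%, as well as 1 GGGCGG, present in 42.6%. The GC content was 55.6% in ABCB1, 73.6% in ABCG2, 80.4% in ABCC4, and 64.8% in ABCC5, and the median of all windows was 58.0%. Among all windows, ABCB1 was at percentile 43.4 and ABCG2 at percentile 86.9 of GC content, and the part of GC content in their counts was not tested. ABCB1 had 12 CpG sites in its window and ABCG2 had 32, and the median was 11. A match describes these letters and is neither a binding site nor a cause.

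Total counts per library lay between 25250057 and 40709885. Levels are given as CPM, that is counts per 1000000 of the library size after TMM scaling, which corrects library sizes for differences in composition, and levels of different genes are compared as CPM per kb of exon. A gene is called when its adjusted p is under 0.05 and its log2 fold change (log2FC) is at least 1 in size. Of the genes for which 5 to 500 counts were expected in a library, 17.4% to 34.6% had 0 counts there, against 0.0212% to 0.0386% under Poisson sampling. If all molecules are read equally often, this gives an estimated 10.8 to 27.7 reads per RNA molecule, so low counts are less precise than their number of reads. HES1, a Notch target, was at 21.5 and 25.5 CPM in DMSO set 2 and at 3.14 and 3.8 CPM after MK-0752 and was called lower (log2FC -2.76 ± 0.51, SE, adjusted p = 0.0153). HES1 was also called lower after the combination in SK-LMS-1 (log2FC -3.37 ± 0.52, adjusted p = 0.0227), and its value in SK-UT-1B was -1.70 ± 0.49 (adjusted p = 0.141). The study sequenced only treatments after which HES1 was lower by quantitative PCR, so its lower level here is no independent check of the drug. Of 10 smooth muscle markers, 5 had over 3 counts in every SK-UT-1B library and 7 in every SK-LMS-1 library, with summed levels of 151 to 264 CPM and 740 to 959 CPM. MYOCD was at 0 in SK-UT-1B and DES at 0 in SK-LMS-1. Leukocyte markers reached this level in neither line (0 of 5).

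**Figure D1:**
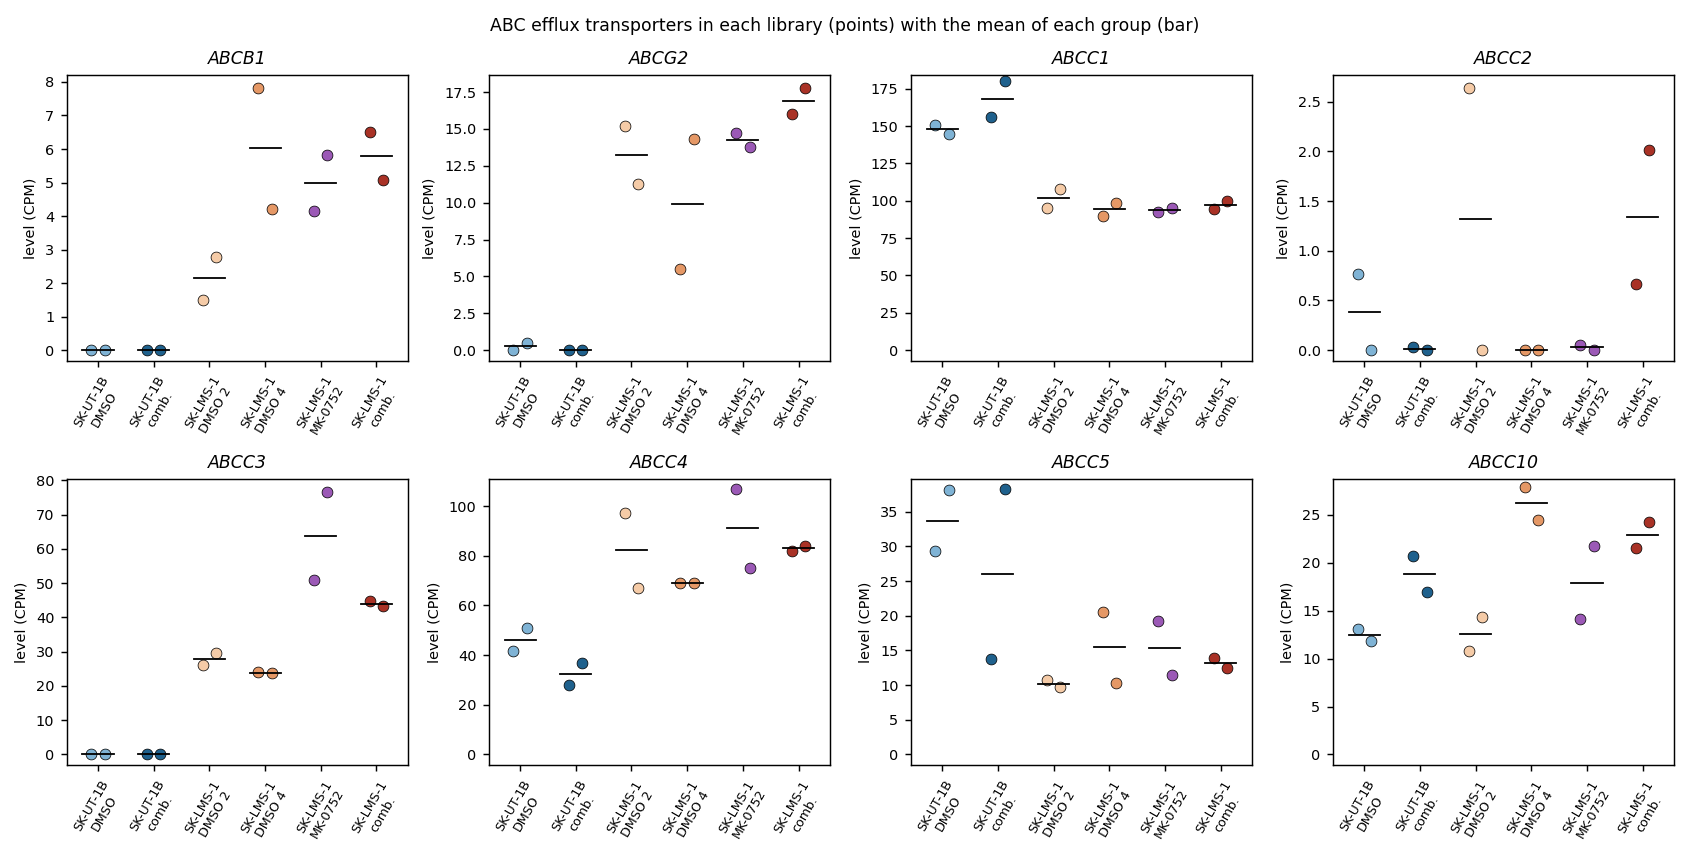
Level of each transporter in CPM on linear axes in the 12 libraries (points), with the mean of each group of 2 as a bar. ABCB1 and ABCC3 lie at 0 in all 4 SK-UT-1B libraries, and ABCC3 is higher in all 4 drug-treated than in all 4 DMSO libraries of SK-LMS-1.

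In SK-UT-1B, 4 of the 8 transporters were counted in every library, while in SK-LMS-1 this held for 7. Compared per exon length, ABCC1 was the highest in SK-UT-1B after DMSO at 17.0 CPM per kb ± 0.454 (SD, n = 2), followed by ABCC4 at 5.36 ± 0.744, ABCC5 at 2.97 ± 0.549, and ABCC10 at 1.54 ± 0.115. These 4 levels did not overlap between libraries. The other members had means of at most 0.0486 CPM per kb. In SK-LMS-1 after DMSO (n = 4), ABCC1 was at 11.2 CPM per kb ± 0.86 and ABCC4 at 8.77 ± 1.67, and the ranges of both genes overlapped. Next in order were ABCC3 (2.69 ± 0.279 CPM per kb), ABCC10 (2.39 ± 1.01), ABCG2 (2.07 ± 0.779), ABCC5 (1.13 ± 0.461), ABCB1 (0.636 ± 0.426), and ABCC2 (0.0841 ± 0.168). From ABCC3 downward, each of these overlapped with its neighbor in the order.

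ABCC1 thus made up 60.6% to 71.7% of the summed level of the 8 members in the SK-UT-1B libraries and 30.3% to 43.8% in the SK-LMS-1 libraries. The sum itself was 26.4 to 27.4 CPM per kb in SK-UT-1B after DMSO and 28.3 to 30.5 in SK-LMS-1 after DMSO, so that these ranges lay close together while the makeup differed. It was 24.8 and 30.3 CPM per kb in the SK-UT-1B combination libraries. In SK-LMS-1, the sum was 34.6 to 35.0 CPM per kb after MK-0752 and 32.8 to 34.0 after the combination, above all 4 DMSO libraries. Among 16271 protein-coding genes ranked by level per kb, ABCC1 was at percentile 85.9 in SK-UT-1B and 77.3 in SK-LMS-1 after DMSO, and ABCB1 was at percentile 31.7 in SK-LMS-1.

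**Figure D2:**
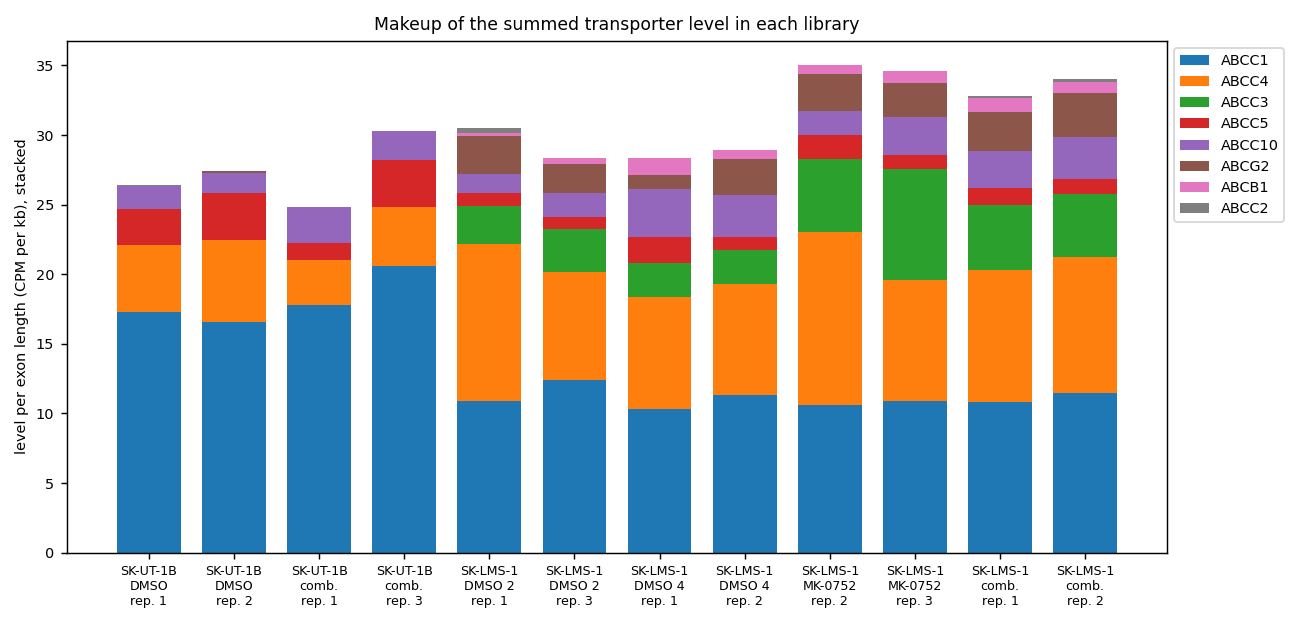
Summed level of the 8 transporters in each library, in CPM per kb of exon length, with each transporter as a colored part of the bar. ABCC1 makes up 60.6% to 71.7% of the bar in SK-UT-1B and 30.3% to 43.8% in SK-LMS-1, where ABCC3, ABCG2, and ABCB1 are added.

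After DMSO, 4 of the 8 transporters were called between the lines, and 31.1% of all genes tested were called in this comparison. ABCB1, ABCC3, and ABCG2 were higher in SK-LMS-1 (background 17%), and ABCC5 was lower (background 14.1%). ABCB1, ABCC3, and ABCG2 passed the filter on low counts through their SK-LMS-1 libraries, so that they had to differ between the lines to be tested. No further test was made of the list.

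ABCB1 (chr7:87503017-87713323) exports taxanes among many other drugs. It was without a single count in SK-UT-1B (0 in each of the 4 libraries). In SK-LMS-1, it had 52 and 77 counts in DMSO set 2 (1.49 and 2.79 CPM) and 193 and 163 counts in DMSO set 4 (7.83 and 4.22 CPM). The lines did not overlap, but the 4 DMSO libraries of SK-LMS-1 spanned 1.49 to 7.83 CPM, and by the estimate above their counts stand for 1.88 to 7.31 molecules. The SK-LMS-1 mean was at least 44.5-fold higher than the level that 3 counts per library would give in SK-UT-1B (edgeR, adjusted p = 6.93e-05). With a limit of 3 molecules over both SK-UT-1B libraries in place of 3 counts, the difference was at least 4.76-fold.

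ABCG2 (chr4:88090150-88231628), which works as a dimer, was counted in 1 of the 4 SK-UT-1B libraries, with 19 counts (0.504 CPM) in the library DMSO replicate 2. By the same estimate, these 19 counts stand for 1.1 molecules. In SK-LMS-1, ABCG2 was at 15.2 and 11.3 CPM in DMSO set 2 and at 5.52 and 14.3 CPM in DMSO set 4. All 4 values lay above those of SK-UT-1B, and the lowest came from DMSO set 4 replicate 1. The log2FC was 5.41 ± 0.92 (edgeR, adjusted p = 0.000362). Its SK-UT-1B side rests on the 19 counts, so the size of this fold is uncertain. Without SK-UT-1B DMSO replicate 2, the fitted log2FC was 11.51 and is then no bound, since the remaining control library was at 0. The lowest log2FC with a single library left out was 4.46.

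ABCC3 (chr17:50634777-50692253), an exporter of glucuronides and bile salts, was counted in SK-LMS-1 alone. Each of the 4 SK-UT-1B libraries held 0 counts, and its levels in SK-LMS-1 after DMSO were 26.2 and 29.6 CPM in DMSO set 2 and 24.1 and 23.7 CPM in DMSO set 4. These 4 libraries lay within a narrow range, between 594 and 916 counts. The mean of ABCC3 in SK-LMS-1 was at least 282-fold higher (adjusted p = 2.14e-11), or at least 30.2-fold with the limit of 3 molecules.

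ABCC5 (chr3:183919934-184017939) was higher in SK-UT-1B. It was at 29.3 and 38.1 CPM in SK-UT-1B and at 10.7 and 9.71 CPM in DMSO set 2 and 20.6 and 10.3 CPM in DMSO set 4 of SK-LMS-1. The lines did not overlap, and the log2FC was -1.43 ± 0.36 (adjusted p = 0.00366). Its antisense gene ABCC5-AS1 had at most 22 counts in any library.

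ABCC1 and ABCC4 also passed the adjusted p between the lines but stayed below the fold threshold. ABCC1 (chr16:15949138-16143257), the first member of its subfamily to be linked to drug resistance, was at 151 and 145 CPM in SK-UT-1B and at 90.1 to 108 CPM in SK-LMS-1 (log2FC -0.60 ± 0.14, adjusted p = 0.0014). ABCC4 (chr13:95019835-95301475) was at 41.7 and 50.8 CPM in SK-UT-1B and at 67.2 to 97.3 CPM in SK-LMS-1 (log2FC 0.70 ± 0.20, adjusted p = 0.00761). No library of one line reached into the range of the other for either gene, and the directions were opposite. ABCC4 did not pass the adjusted p without SK-UT-1B DMSO replicate 1 (log2FC 0.53, adjusted p = 0.122) or without DMSO set 2 replicate 1 (0.51, adjusted p = 0.0672). Where a library is left out of a pair, the remaining one is assumed to vary like the other groups.

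The remaining members, ABCC10 and ABCC2, were not called between the lines. ABCC10 (chr6:43427366-43450427) was at 13.1 and 11.8 CPM in SK-UT-1B and at 10.8 to 27.9 CPM in SK-LMS-1 after DMSO, with overlap (log2FC 0.54, 95% interval -0.06 to 1.14, adjusted p = 0.144). Its exons overlap those of DLK2 on the opposite strand, which had 189 to 352 counts in the SK-UT-1B libraries and 0 to 38 in those of SK-LMS-1. As the strand setting of the counts is not given, ABCC10 values are uncertain where these exons overlap. ABCC2 (chr10:99782640-99852594), the exporter of the bile canaliculus of the liver, had 0 to 3 counts in 8 of the 12 libraries. Of the other 4, it had 92 counts in DMSO set 2 replicate 1, 22 and 49 counts in the SK-LMS-1 combination libraries, and 22 counts in SK-UT-1B DMSO replicate 1. With at most 4.13 estimated molecules in a library, no difference in ABCC2 was detectable at this depth, and no fold change is given.

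After the combination, 4 of the 8 members were called between the lines, 4 higher and 0 lower in SK-LMS-1, and 25.4% of all genes tested were called, 15.6% higher and 9.88% lower. Here too, ABCB1, ABCC3, and ABCG2 passed the filter only through SK-LMS-1 libraries, so they had to differ between the lines to be tested. ABCB1 was at 6.52 and 5.09 CPM in SK-LMS-1 against 0 counts in SK-UT-1B, at least 61.6-fold (adjusted p = 6.55e-05), or 7.1-fold with 3 molecules. ABCG2 was at 16.0 and 17.8 CPM against 0 counts, at least 179-fold (adjusted p = 4.41e-05), or 20.7-fold with 3 molecules. ABCC3 was at 44.7 and 43.3 CPM against 0 counts, at least 467-fold (adjusted p = 1.46e-11), or 53.9-fold with 3 molecules. ABCB1 and ABCC3 thus had 0 counts in SK-UT-1B with and without the drugs.

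ABCC4 was called here, with 81.9 and 84.0 CPM in SK-LMS-1 and 28.1 and 36.7 CPM in SK-UT-1B (log2FC 1.36 ± 0.23, adjusted p = 8.96e-05). ABCC5 was at 13.9 and 12.5 CPM in SK-LMS-1 and at 13.8 and 38.3 CPM in SK-UT-1B, with overlap (log2FC -0.97 ± 0.44, adjusted p = 0.105). Without the filter on low counts, ABCC5 was called lower in SK-LMS-1 (log2FC -1.01, adjusted p = 0.024). It was also called without SK-UT-1B combination replicate 1, the low library of that pair (log2FC -1.56, adjusted p = 0.000949), but that fit tested 24359 genes and left 1 library in the group, and without replicate 3 the log2FC was -0.058. ABCC1 remained below the fold threshold, with 94.6 and 100 CPM in SK-LMS-1 and 156 and 180 CPM in SK-UT-1B (log2FC -0.79 ± 0.16, adjusted p = 0.000714).

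To see whether the absent transporters lay in regions without counts, the neighboring protein-coding genes were examined. ABCB4, which encodes a phospholipid exporter of the liver and lies 22.6 kb from ABCB1, also had 0 counts in each SK-UT-1B library, but 53 to 394 counts in the SK-LMS-1 libraries. The next genes on either side, CROT and SLC25A40, were counted in every library of both lines, with 3.5 to 11.1 CPM and 18.6 to 29.8 CPM in SK-UT-1B. RUNDC3B, which overlaps ABCB1 on the opposite strand without shared exon bases, had 52 and 22 counts in the SK-UT-1B DMSO libraries, 5 and 0 in the combination libraries, and 0 to 114 in those of SK-LMS-1. Of the genes examined there, ABCB4 and ABCB1 were at 0 in all SK-UT-1B libraries. Around ABCC3, ANKRD40, only 0.945 kb away, was at 95.4 to 113 CPM in SK-UT-1B, and CACNA1G, on the other side, was at 9.92 to 18.7 CPM in SK-UT-1B and at most 0.982 CPM in SK-LMS-1. Next to ABCG2, PKD2 was at 27.3 to 50.2 CPM and PPM1K at 4.88 to 12.2 CPM in SK-UT-1B.

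**Figure D3:**
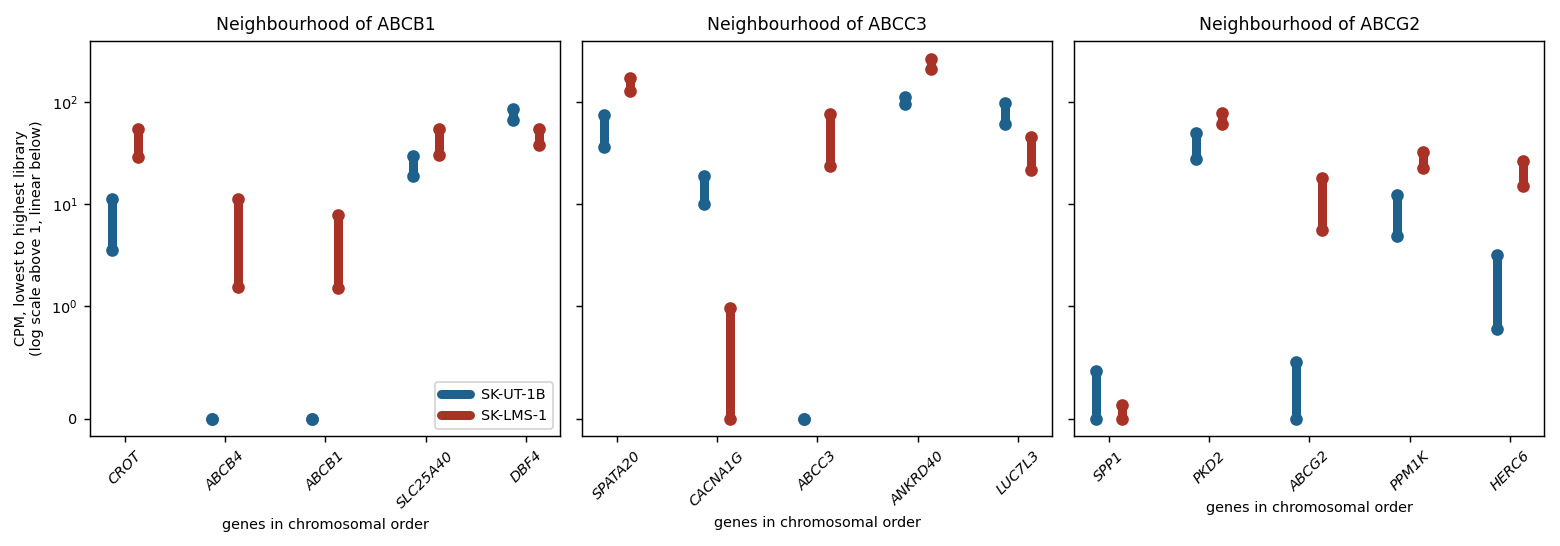
Lowest to highest CPM over the SK-UT-1B libraries (blue, n = 4) and the SK-LMS-1 libraries (red, n = 8) for ABCB1, ABCC3, ABCG2, and the nearest protein-coding genes on either side, in chromosomal order, on an axis that is logarithmic above 1 and linear below. In SK-UT-1B, ABCB4 and ABCB1 lie at 0 side by side, while ABCC3 lies at 0 between counted genes.

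The effect of the drugs on the transporters was examined next. In SK-UT-1B, 0 of the 8 members were called after the combination by edgeR, 2 had an unadjusted p under 0.05, and DESeq2 called 1. Of all genes tested, 0.559% were called by edgeR, 10.5% had an unadjusted p under 0.05, and 1.78% were called by DESeq2. ABCC4 was at 41.7 and 50.8 CPM after DMSO and at 28.1 and 36.7 CPM after the combination. Both treated libraries lay below both controls, but the difference did not pass the adjustment (log2FC -0.52 ± 0.23, adjusted p = 0.410). ABCC10 lay higher in both treated libraries, with 20.7 and 17.0 CPM against 13.1 and 11.8 CPM (log2FC 0.59 ± 0.33, adjusted p = 0.579).

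ABCC1 was at 156 and 180 CPM after the combination against 151 and 145 CPM, and the 95% interval of its log2FC, -0.16 to 0.52, lies within the fold threshold. ABCC5 had a log2FC of -0.38 (95% interval -1.29 to 0.54). Its treated libraries differed widely from each other, at 13.8 and 38.3 CPM. ABCG2 went from 0 and 19 counts to 0 and 0 counts. DESeq2 called this as lower (adjusted p = 0.0344), and edgeR did not (adjusted p = 0.228). Since the difference consists of 19 counts in 1 library, no fold change is given. ABCB1 and ABCC3 were at 0 in both groups and had no measurable change.

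In SK-LMS-1, 0 of the 8 members were called after MK-0752 by edgeR, 1 had an unadjusted p under 0.05, and DESeq2 called 1. The shares of all genes tested were 0.251%, 6.41%, and 0.62%, in the same order. The member in question in both cases was ABCC3. It was at 26.2 and 29.6 CPM in DMSO set 2 and at 51.0 and 76.6 CPM after MK-0752, a ratio of the means of 2.29, and the groups did not overlap. The log2FC was 1.19 ± 0.29 (95% interval 0.59 to 1.80, unadjusted p = 0.000672, adjusted p = 0.114). The call depended on the settings, and ABCC3 was called higher with DESeq2 (adjusted p = 0.04), without the filter on low counts (0.0114), with only the libraries of this comparison (0.0235), with all 4 DMSO libraries as the control (0.0118), and with DMSO set 4 as the control (0.0371). Without MK-0752 replicate 3, the higher of the treated libraries, the log2FC was 0.87 (adjusted p = 0.981), and over all alternatives the adjusted p lay between 0.0114 and 0.981.

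The combination gave a difference of ABCC3 in the same direction. ABCC3 was at 24.1 and 23.7 CPM in DMSO set 4 and at 44.7 and 43.3 CPM after the combination, a ratio of 1.84. The groups did not overlap (log2FC 0.88 ± 0.29, 95% interval 0.27 to 1.49, unadjusted p = 0.007), but the adjusted p was 0.907. Reads per molecule were estimated at 10.8 and 11.9 in the combination libraries and at 26.4 and 25.3 in DMSO set 4. The part of this in the difference was not tested. All 4 drug-treated libraries had more ABCC3 than all 4 DMSO libraries, whose highest value was 29.6 CPM. The log2FC of MK-0752 and of the combination differed by 0.31 (95% interval -0.54 to 1.16, adjusted p = 1), so no difference between the treatments was shown.

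Under the combination, 0 of the 8 members were called in SK-LMS-1 by edgeR and 0 by DESeq2, and 2 had an unadjusted p under 0.05 by edgeR. Of all genes tested, 0.0237% were called by edgeR and 0.171% by DESeq2, and 4.33% had an unadjusted p under 0.05. The second member with an unadjusted p under 0.05 was ABCC2, with the few counts given above. ABCG2 was at 16.0 and 17.8 CPM after the combination against 5.52 and 14.3 CPM, higher without overlap, but with an interval from -0.89 to 2.42 for its log2FC of 0.77. The log2FC was 0.24 without DMSO set 4 replicate 1 and 1.63 without DMSO set 4 replicate 2. After MK-0752, ABCG2 was at 14.7 and 13.8 CPM against 15.2 and 11.3 CPM (log2FC 0.10, 95% interval -1.54 to 1.75). ABCC1 had the narrowest intervals in SK-LMS-1 of the members shown, with a log2FC of -0.12 (95% interval -0.45 to 0.22) after MK-0752 and 0.04 (95% interval -0.29 to 0.38) after the combination.

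The exporters of nucleotide analogs, ABCC4 and ABCC5, also gave intervals that include 0 in SK-LMS-1. ABCC4 was at 107 and 75.2 CPM after MK-0752 against 97.3 and 67.2 CPM (log2FC 0.14, 95% interval -0.32 to 0.61). After the combination, it was at 81.9 and 84.0 CPM against 69.2 and 69.1 CPM (log2FC 0.26, 95% interval -0.21 to 0.73). Here both treated libraries lay above both controls, while in SK-UT-1B both lay below. For ABCC5, the log2FC was 0.59 (95% interval -0.33 to 1.51) after MK-0752 and -0.22 (95% interval -1.14 to 0.70) after the combination.

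Of the taxane exporters, ABCB1 was at 4.15 and 5.81 CPM after MK-0752, above both libraries of DMSO set 2, whereas DMSO set 4 (7.83 and 4.22 CPM) had the highest value. Its log2FC was 1.22 with a 95% interval of -0.80 to 3.24, and with DMSO set 4 as the control it was -0.27. After the combination, ABCB1 had a log2FC of -0.05 (95% interval -2.04 to 1.94). It was 1.44 with DMSO set 2 as the control and 0.51 with all 4 DMSO libraries. ABCC10 was at 14.1 and 21.7 CPM after MK-0752 and at 21.5 and 24.3 CPM after the combination, with log2FC values of 0.52 (95% interval -0.16 to 1.20) and -0.20 (95% interval -0.87 to 0.48). These values depended on the control, because ABCC10 differed between the DMSO sets, with 10.8 and 14.3 CPM in set 2 and 27.9 and 24.5 CPM in set 4.

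**Figure D4:**
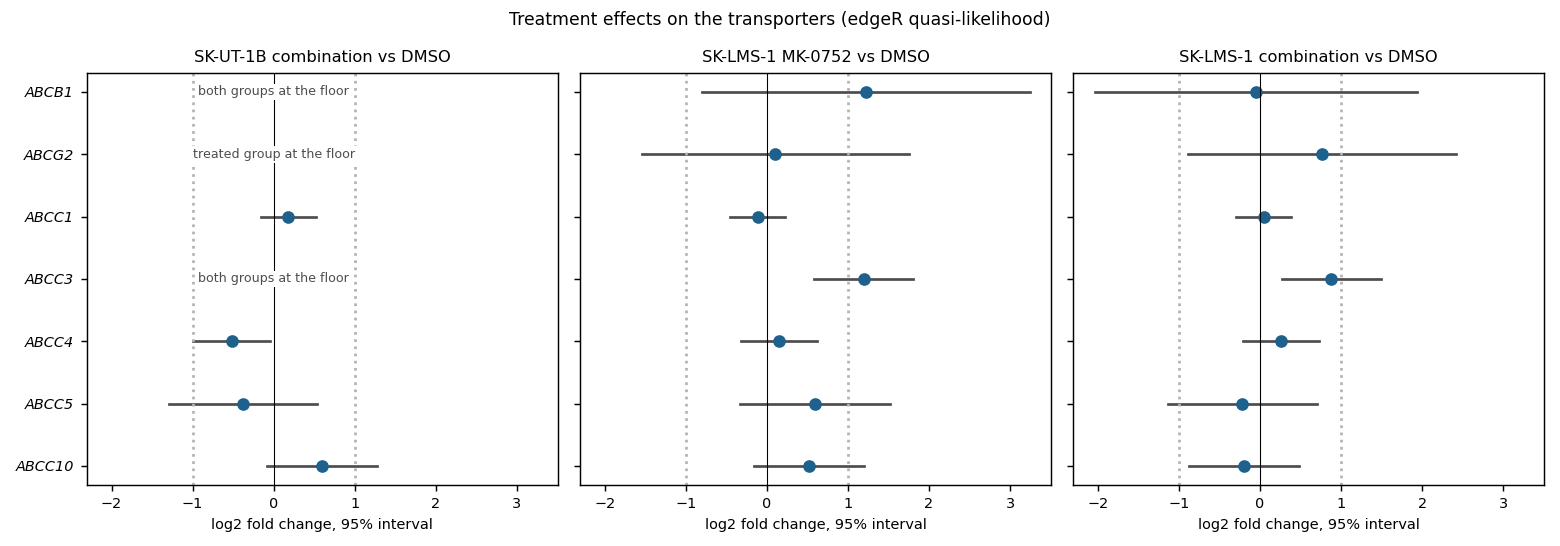
Log2FC of 7 transporters (points) with the 95% interval (lines) for each treatment against DMSO, with dotted lines at -1 and 1, text for groups at or below 3 counts, and ABCC2 left out because of its few counts. The intervals of ABCC3 in SK-LMS-1 lie above 0, at 0.59 to 1.80 after MK-0752 and 0.27 to 1.49 after the combination, and the other intervals in SK-LMS-1 include 0.

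Between the DMSO sets, which received no drug, 0 of the 8 members were called by edgeR and 0 by DESeq2, and 2 had an unadjusted p under 0.05 by edgeR. Of all genes tested, edgeR called 0%, DESeq2 called 0.156% (11 higher and 22 lower in set 4), and 5.67% had an unadjusted p under 0.05, and edgeR without the filter on low counts called 36 genes higher and 40 lower. The 2 members were ABCC10 (log2FC 1.06 ± 0.33, unadjusted p = 0.00418, adjusted p = 0.794) and ABCC2. The difference of ABCC10 between these controls was larger in size than its log2FC under either treatment, and its cause was not tested. ABCB1 also lay higher in both libraries of DMSO set 4 (log2FC 1.49, 95% interval -0.54 to 3.53).

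The effect of the combination was then compared between the lines. By edgeR, 0 of the 8 members were called in this difference, 3 had an unadjusted p under 0.05, and DESeq2 called 0. The shares of all genes tested were 0.232%, 7.67%, and 0.701%, in the same order. The 3 members were ABCC4, with a difference of -0.78 ± 0.32 in log2FC (SK-UT-1B minus SK-LMS-1, unadjusted p = 0.0248, adjusted p = 0.600), and ABCG2 and ABCC2, whose SK-UT-1B counts are those given above. For MK-0752 against the combination in SK-LMS-1, edgeR called 0 of the 8 members and DESeq2 called 0, and 1 (ABCC2) had an unadjusted p under 0.05, against 0.0379%, 0.189%, and 5.18% of all genes tested.

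Lists of other ABC superfamily genes and of genes related to drug handling were examined for context. Of 39 other ABC superfamily genes, 33 passed the filter, of which 7 were called higher and 5 lower in SK-LMS-1 in the comparison of the DMSO libraries. In this comparison, 17% of all genes tested were called higher and 14.1% lower, which holds for each list that follows. The median log2FC of the list was 0, as was that of all genes tested. Of the genes with the largest fitted log2FC in size, an order that is not determined where a group is at 0, ABCA13 and ABCC9, a subunit of potassium channels, were at 27.8 CPM ± 5.25 and 12.7 ± 3.44 in SK-LMS-1 (n = 4) and at 0 in SK-UT-1B after DMSO. ABCD2, a peroxisomal importer of fatty acids, was at 6.21 CPM ± 1.21 in SK-UT-1B (n = 2) and at 0 in SK-LMS-1 after DMSO. After the combination in SK-UT-1B, 1 of the 33 was called by edgeR (0.559% of all genes), 2 by DESeq2 (1.78%), and 9 had an unadjusted p under 0.05 (10.5%). The edgeR call was ABCA1, the cholesterol exporter, which went from 24.1 CPM ± 3.34 to 53.3 ± 25.5 (n = 2 each, log2FC 1.14 ± 0.24, adjusted p = 0.0374). In SK-LMS-1, edgeR called 0 of the 33 after MK-0752 (0.251% of all genes) and 0 after the combination (0.0237%), and 4 had an unadjusted p under 0.05 after MK-0752 (6.41% of all genes) and 4 after the combination (4.33%). After MK-0752, 1 was called lower by DESeq2 (0.62% of all genes), and 1 by edgeR with all 4 DMSO libraries as the control, where 22 genes were called higher and 52 lower of all 21114.

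Among 16 regulators that sense foreign compounds or stress, 14 were tested, with 4 called higher and 2 called lower in SK-LMS-1 (median log2FC 0.08). AHR, the receptor for dioxins that binds GCGTG together with ARNT, was at 157 CPM ± 17.6 (n = 4) in SK-LMS-1 and 1.73 ± 1.61 (n = 2) in SK-UT-1B (log2FC 6.45 ± 0.53, adjusted p = 9.53e-06). A link of AHR to the GCGTG matches of the transporters was not tested. Also called were PPARG, a receptor for fatty acids, at 20.4 CPM ± 5.34 against 0.265 ± 0.375 (log2FC 6.12), and FOXO1 (log2FC -1.91). NR1I2, the receptor that induces ABCB1 in the liver, had 0 counts in every SK-UT-1B library and at most 23 in SK-LMS-1. By edgeR, 0 regulators were called after the combination in SK-UT-1B (0.559% of all genes), after MK-0752 (0.251%), or after the combination in SK-LMS-1 (0.0237%). DESeq2 called 1 higher, 0, and 0 in the same order (1.78%, 0.62%, and 0.171% of all genes). Of the 14, 4 had an unadjusted p under 0.05 in SK-UT-1B (10.5% of all genes), 0 after MK-0752 (6.41%), and 2 after the combination in SK-LMS-1 (4.33%).

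Of 25 genes of glutathione synthesis and drug conjugation, 20 were tested, with 8 called higher and 5 called lower in SK-LMS-1 (median log2FC 0.69). Of the genes with the largest fitted log2FC in size, GSTO2 and GSTM2, both glutathione transferases, were at 14.3 CPM ± 2.88 and 3.36 ± 0.846 in SK-LMS-1 and at 0 in SK-UT-1B after DMSO. MGST1, their microsomal relative, was at 107 CPM ± 22.0 in SK-LMS-1 and 0.172 ± 0.244 in SK-UT-1B. The quinone reductase NQO1 was among the 5 that were lower, at 19.5 CPM ± 4.74 against 300.0 ± 3.32 (log2FC -3.97). After the combination in SK-UT-1B, 1 of the 20 was called by edgeR (0.559% of all genes), 1 higher and 1 lower by DESeq2 (1.78%), and 5 had an unadjusted p under 0.05 (10.5%). The edgeR call was GSTO2, which had 0 counts in both DMSO libraries and 0.942 CPM ± 0.173 after treatment (adjusted p = 0.000382). It had at most 30 counts in a library, with an estimated 16.8 and 18.8 reads per molecule in the treated libraries, so this difference rests on few molecules and no fold change is given. In SK-LMS-1, edgeR called 0 of the 20 after MK-0752 (0.251% of all genes) and 0 after the combination (0.0237%). Of the 20, 2 had an unadjusted p under 0.05 after MK-0752 (6.41%) and 2 after the combination (4.33%). With all 4 DMSO libraries as the control for MK-0752, edgeR called 1 higher, against 22 of all 21114 genes.

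Of 11 membrane scaffold partners in the count table, which anchor transporters or form the caveolae in which ABCB1 is found, 10 were tested, with 8 called higher and 0 called lower in SK-LMS-1 (median log2FC 1.92). The 8 became 7 with DESeq2 and 6 with edgeR on DESeq2 size factors. CAV1, the main caveolar coat protein, was at 908 CPM ± 140 in SK-LMS-1 and 0.159 ± 0.225 in SK-UT-1B (adjusted p = 7.06e-05). CAV2 was at 195 CPM ± 59.6 against 2.61 ± 1.36 (log2FC 6.21), and SLC9A3R2, a PDZ adaptor, had a log2FC of 3.82. After the combination in SK-UT-1B, 0 of the 10 were called by edgeR (0.559% of all genes) and 0 by DESeq2 (1.78%), and 5 had an unadjusted p under 0.05 (10.5% of all genes), with a median log2FC of -0.44. Among them, MSN, which links membrane proteins to actin, was at 358 CPM ± 22.2 after DMSO and 212 ± 69.9 after the combination (log2FC -0.75, adjusted p = 0.0384, below the fold threshold). Of 7 drug exporters outside the ABC family, 6 were tested, with 3 called higher and 2 called lower (median log2FC 0.78). SLC47A1, a proton-coupled exporter of organic cations, was at 93.5 CPM ± 1.95 in SK-UT-1B and 0.109 ± 0.217 in SK-LMS-1, and MVP, the major vault protein, was at 226 CPM ± 23.3 in SK-LMS-1 against 16.5 ± 3.51 (log2FC 3.78). ATP7B, a copper exporter, was lower in SK-LMS-1 (log2FC -2.78). After the combination in SK-UT-1B, SLC22A4, a carnitine and cation transporter, was at the threshold (log2FC -4.05, adjusted p = 0.0496) and was not called with DESeq2 size factors in edgeR (adjusted p = 0.0516), while DESeq2 called it lower (adjusted p = 0.00134). Of 10 genes of taxane uptake and metabolism, 2 were tested, and CYP1B1 was called lower there, with 3.57 CPM ± 0.839 in SK-UT-1B and 0 CPM in each DMSO library of SK-LMS-1. CYP3A4, which metabolizes docetaxel in the liver, had at most 6 counts in any library.

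Markers of smooth muscle and epithelium, and some of endothelium, moved with the difference between the lines. Of 9 smooth muscle markers tested, 6 were called higher and 1 lower in SK-LMS-1 (median log2FC 2.43). Of 6 epithelial markers, 4 had over 3 counts in every SK-LMS-1 library, with a summed level of 169 to 266 CPM, and 1 did so in SK-UT-1B, with 0.292 to 1.14 CPM. CDH1 was at 0 in SK-LMS-1. Of 3 endothelial markers tested, 1 was called higher by edgeR and 2 by DESeq2, and the summed level of the 4 listed was 2.46 to 9.4 CPM in SK-LMS-1 and 0 to 2.01 CPM in SK-UT-1B. After DMSO, PECAM1 was at 3.68 CPM ± 1.8 in SK-LMS-1, against 0 in SK-UT-1B, and KDR was at 0 in both lines. VWF, at 1.0 CPM ± 1.42 in SK-UT-1B (n = 2) and 0.223 ± 0.446 in SK-LMS-1 (n = 4) after DMSO, did not pass the test (edgeR, adjusted p = 0.198). Of 3 leukocyte markers tested, edgeR called 0 and DESeq2 called 1 higher in SK-LMS-1. The summed level of the 5 leukocyte markers listed was 0.246 to 2.88 CPM in SK-LMS-1 and 0 to 0.492 CPM in SK-UT-1B. The part of these lists in the differences of ABCB1, ABCC3, and ABCG2 was not tested.

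Finally, the genes whose pattern was most like each member were listed, with ABCC2 left out. The measure was the Pearson correlation of log2 CPM over the 12 libraries, after the mean of each line was removed. Of 13522 genes, the most similar was MDK for ABCC3 (r = 0.963), MAGI2-AS3 for ABCG2 (r = 0.971), RN7SL665P for ABCB1 (r = 0.955), SUB1 for ABCC4 (r = 0.942), BOLA3 for ABCC5 (r = 0.939), MKNK2 for ABCC10 (r = 0.916), and NHEJ1 for ABCC1 (r = 0.869). These values describe 12 libraries that differ in depth and in the number of reads per molecule, and they are the highest of many. Those of ABCB1 and ABCC3 rest on the 8 SK-LMS-1 libraries, since both genes are at 0 in all SK-UT-1B libraries. For ABCG2, the SK-UT-1B part of the value rests on at most 19 counts in a library. Among the members themselves, again without ABCC2, the highest was that of ABCB1 with ABCC10 (r = 0.771, likewise over SK-LMS-1). The lowest was that of ABCC4 with ABCC10 (r = -0.674).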

How the data were processed

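Reads of stranded, ribosome-depleted libraries were trimmed with Trim Galore 0.3.7 and aligned to hg38 with STAR 2.7.9a, and ribosomal RNA was removed, per the submitters' notes and methods. The authors deposited raw STAR counts per gene, without normalization. The columns taken as SK-LMS-1 carry no line name, unlike those of SK-UT-1B, and were matched to the samples by treatment and number. The annotation, the strand setting, and any removal of duplicate reads are not given in the sources used here. Genes were named by the table, and GENCODE v44 gave coordinates and exon lengths.

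Counts of 12 libraries in 6 groups of 2 were tested with edgeR 4.0.16 in R 4.3.3 (TMM, filterByExpr, robust quasi-likelihood F test), which left 21114 genes, with Benjamini-Hochberg adjustment over all of them. The method was tested on simulated data. SE is the log2FC divided by the root of F. Groups with at most 3 counts in both libraries were taken as at the floor, and folds against them use 3 counts per library (the list medians given were the same with such genes at this bound). Alternatives were DESeq2 1.42.0, its size factors, other filters, fewer libraries, other controls, and a replicate block. All 8 members are named. Of each list, up to 3 called genes with the largest log2FC in size are named per comparison, and ABCB4, NQO1, MSN, PECAM1, KDR, VWF, NR1I2, and CYP3A4 were named after their values were seen. The members and lists were chosen with earlier results of these data known.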

Additional observations from a re-analysis of the deposited data

Results flagged for a closer look

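In the 4 SK-LMS-1 DMSO libraries, the value farthest from the others stood apart by more than the 95% limit of Dixon's test for 3 members. Chance gives such a gap in about 1 in 20 groups of normally distributed values. Counts with many reads per molecule need not follow that distribution, and the share of all genes with such a gap was not computed. The gap made up 1.0 of the range for ABCC2 (92 counts in DMSO set 2 replicate 1 and 0 in the other 3), 0.934 for ABCC4 (97.3 CPM in the same library against 67.2 to 69.2), and 0.909 for ABCC5 (20.6 CPM in DMSO set 4 replicate 1 against 9.71 to 10.7). For ABCC2, a gap of 1.0 follows whenever a single library has counts. These libraries belong to both DMSO sets, and the cause was not tested.

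For ABCC4 and ABCC10, treated and control libraries of the combination did not overlap and differed in opposite directions in the lines, although neither gene was called in either line (edgeR, adjusted p = 0.410 and 0.579 in SK-UT-1B, 0.946 and 1 in SK-LMS-1). ABCC4 was lower in SK-UT-1B and higher in SK-LMS-1 (difference of the log2FC -0.78, unadjusted p = 0.0248, adjusted p = 0.600 by edgeR). Without SK-UT-1B combination replicate 3, the difference of ABCC4 was -0.98 (adjusted p = 0.0480, below the fold threshold), and with other single libraries left out the adjusted p was 0.272 or higher. The log2FC of ABCC4 in SK-LMS-1 went from 0.26 to 0.012 with DMSO set 2 as the control, whose libraries overlap the treated ones. ABCC10 was higher in SK-UT-1B and lower in SK-LMS-1 (difference 0.79, unadjusted p = 0.101, adjusted p = 0.705). The direction of ABCC10 in SK-LMS-1 (log2FC -0.20) turned with the control, to 0.24 with all 4 DMSO libraries and 0.87 with DMSO set 2. Neither difference passed the test with all libraries in the fit. With 2 libraries a group, groups often separate by chance, and the share of all genes with this pattern was not computed.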

How the results depend on the processing

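The number of transporters called between the lines kept within 1.5 times its value under all alternatives run. After MK-0752, it went from 0 to 1 (ABCC3) with DESeq2, without the filter on low counts, with only the libraries of the comparison, with all 4 DMSO libraries, and with DMSO set 4 as the control (the last chosen after seeing the data). In SK-UT-1B, it went from 0 to 1 (ABCG2, 19 counts in 1 library) with DESeq2 and without the filter, and with single libraries left out it lay between 0 and 1. The difference of the combination between the lines went from 0 to 1 (ABCG2) without the filter, and lay between 0 and 1 with single libraries left out. Without SK-LMS-1 MK-0752 replicate 3, the log2FC of ABCC3 fell to 0.87, the lowest of its leave-one-out values (highest 1.46).

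Some treatment effects changed sign, none of them called by edgeR, with log2FC up to 1.22 (ABCB1 after MK-0752). With DMSO set 4 as the control for MK-0752, the log2FC was -0.27 (ABCB1), -0.55 (ABCC10), and -0.0068 (ABCC5), and with all 4 DMSO libraries it was -0.11 (ABCC10). For the combination in SK-LMS-1, all 4 DMSO libraries gave 0.51 (ABCB1), -0.0088 (ABCC1), 0.24 (ABCC10), and 0.048 (ABCC5), DMSO set 2 gave 1.44 (ABCB1), -0.060 (ABCC1), 0.87 (ABCC10), and 0.38 (ABCC5), and a mean of at least 50 counts gave -0.00075 (ABCC1). With single libraries left out, the ranges were -0.41 to 0.46 (ABCB1), -0.017 to 0.13 (ABCC1), and -0.62 to 0.37 (ABCC5) for the combination in SK-LMS-1, -0.13 to 0.44 (ABCC4) and -0.11 to 0.33 (ABCG2) for MK-0752, -1.29 to 0.15 (ABCC5) for the combination in SK-UT-1B, and -0.0055 to 0.58 (ABCC3) for the difference of the treatments. Causes were not tested.

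Same-numbered libraries of the combination and DMSO set 4 did not deviate together (r = -0.0175 across 21114 genes). A single correlation over noisy counts cannot decide whether they share a culture or a day, which the labels do not give. A replicate block for the combination and DMSO set 4 called 0 members and gave 0.0016 for ABCB1. Fits with a library left out tested 24346 to 24756 genes, since the filter then asks for fewer libraries. The other treated groups share fewer than 2 numbers with their controls. The number of molecules sampled limits ABCB1, ABCC2, ABCC3, and ABCG2 in SK-UT-1B, which are at or near 0 counts there. Counts of all genes called depended on the tool, the filter, and the libraries fitted, and they also changed with single libraries left out. In SK-UT-1B they were 83 higher and 35 lower by edgeR and 236 and 140 by DESeq2. By edgeR they were 259 and 161 without the filter and 0 and 0 with only the libraries of the comparison. After MK-0752 they were 12 and 41, 45 and 86, 64 and 111, and 23 and 76, and after the combination in SK-LMS-1 3 and 2, 31 and 5, 50 and 23, and 0 and 0.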
